A study of Mus musculus with 18 samples.

Results

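The collagen genes were followed in cultured mouse fibroblasts. They were chosen by name: every gene symbol in the count tables made of "Col", digits, "a" and digits, which gave 44 of 24062 genes. Of these, 26 had enough reads to be tested, among 12140 tested genes in all. The 44 genes comprised 11 fibrillar collagens, 9 network-forming collagens, 6 beaded filament collagens, 9 fibril-associated collagens with interrupted helices (FACIT collagens), 4 transmembrane collagens, 2 multiplexins, the anchoring fibril collagen Col7a1, and 2 others, Col26a1 and Col28a1.

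The cells were NIH3T3, an established mouse embryonic fibroblast line, either parental (called WT here) or of the derived line NIH3T3-mCherry-mTRIM21 (called TRIM21 here), which carries mouse TRIM21 joined to the red fluorescent protein mCherry. TRIM21 is a ubiquitin ligase that binds antibodies inside cells. Cells of each line were electroporated with PBS, with bovine serum albumin (BSA) or with an antibody (IgG), at 7.5 µg where protein was given, which made 6 groups of 3 libraries. All groups shared the electroporation (2 pulses of 20 ms at 1400 V), medium with 10% calf serum afterwards, and lysis 16 h later for polyA-enriched RNA sequencing. TRIM21 cells were 1 derived line, so the line comparison sets that line against its parent and cannot separate the transgene from other differences between them. Promoter of the transgene and clonality of the line are not given in the sources used here. Libraries are named below by a number from their titles (10, 11 or 14), which occurs once in every group. Nothing in the labels says that libraries of a group came from separate cultures, so p-values measure only the spread between these samples, which may be technical.

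Collagens are the main structural proteins of the extracellular matrix, and fibroblasts are their typical source. Chains are folded into a helix in the endoplasmic reticulum with the help of hydroxylases and chaperones, secreted as procollagen, trimmed, and cross-linked outside the cell. Fibrillar types form the load-bearing fibrils, network types form sheets such as the basement membrane, type VI forms beaded filaments around cells, and FACIT collagens sit on fibril surfaces.

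The libraries held 19509017 to 26521824 gene-assigned reads in WT and 20314542 to 29766433 in TRIM21 cells. Trim21, the introduced gene, stood at 8.02 ± 1.13 CPM (reads scaled to library size) in WT and at 1038 ± 63.6 in TRIM21 libraries (SD, n = 9 each), so the labels fitted this gene. Of 10 fibroblast markers, 10 had a median above 1 CPM, with summed levels of 19200 to 23450 CPM in WT and 14920 to 21450 CPM in TRIM21. Summed markers of epithelium, endothelium and adipocytes stayed at or under 2.6 CPM in every library. Among chondrocyte and osteoblast markers Sox9 and Runx2 were high, whereas the defining cartilage gene Acan and bone genes Sp7 and Ibsp were at or near 0. Likewise Acta2 and Tagln were high but the smooth muscle genes Myh11 and Des were near 0. Immune markers summed to 7.39 to 11.8 CPM. Of these, Cd68 stood at 4.57 to 8.66 CPM and Csf1r at 1.87 to 3.5 CPM, while Ptprc reached at most 0.224 CPM and Cd3e was at 0. The TRIM21 library given PBS and numbered 11 stood apart for collagens, being the lowest of all 18 libraries for 21 of the 26 tested genes. Some values that rest on it are given with and without it, and others only with it.

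NIH3T3 cells expressed a narrow set of collagens at high level. Compared per kilobase of annotated exon (the union of exons, in CPM per kb, mean ± SD of 18 libraries), the leading genes were Col6a1 at 653 ± 136, Col3a1 at 466.5 ± 132, Col1a1 at 450.5 ± 134, Col1a2 at 408 ± 76.1 and Col6a2 at 247 ± 54.7. These encode chains of type VI, type III and type I collagen, and were the 5 tested collagens above 100 CPM per kb. The next 3 were Col4a1 (basement membrane type IV) at 79.3 ± 12.9, Col16a1 (a FACIT collagen) at 79.2 ± 19.2 and Col6a3 at 75.9 ± 8.93 CPM per kb. At the low end Col11a1 averaged 0.251 and Col22a1 0.179 CPM per kb, a 3660-fold range from Col6a1 to Col22a1. In that order 15 of 25 neighbouring pairs differed by no more than 1 SD, including Col3a1 and Col1a1, Col1a1 and Col1a2, and Col4a1 and Col16a1, so only the broad tiers are resolved. The order also changes with the length used. With the longest annotated transcript the same 5 genes led, but Col1a2 came first at 948, before Col3a1 at 823 and Col6a1 at 698. Col16a1 at 103 and Col5a2 at 101 CPM per kb then also passed 100.

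**Figure D1:**
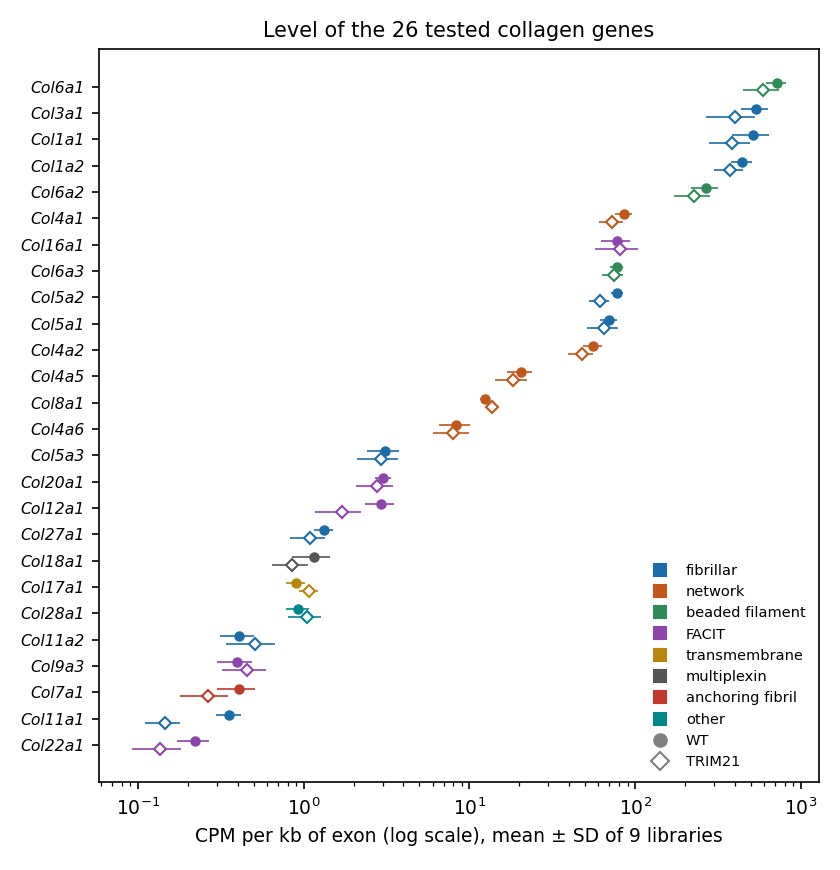
Level of each of the 26 tested collagen genes in CPM per kb of exon on a log axis, as the mean ± SD of 9 WT libraries (filled circles) and 9 TRIM21 libraries (open diamonds), coloured by class and ordered by level. Col6a1, Col3a1, Col1a1, Col1a2 and Col6a2 lie above 100 CPM per kb, and Col11a1 and Col22a1 lie at the bottom with the WT symbol to the right.

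The remaining 18 collagens were too low to be tested. No read was counted in any library for Col9a1, Col13a1, Col19a1 and Col26a1, and 3 reads over all 18 libraries would correspond to 0.00726 CPM, which is the level that a count of 0 allows. The other 14 had 1 to 100 reads over all libraries together. They included the cartilage fibril gene Col2a1 with 28 reads, the hypertrophic cartilage gene Col10a1 with 89, the kidney and lung basement membrane genes Col4a3 with 8 and Col4a4 with 4, and the FACIT gene Col14a1 with 12. Within several families, then, some chains were abundant while others were near the detection limit: Col6a1, Col6a2 and Col6a3 against Col6a4 (14 reads), Col6a5 (96 reads) and Col6a6 (7 reads).

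Chains that assemble together were set against each other within libraries, as ratios of CPM per kb. Type I collagen is built mostly from pairs of the α1 chain with a single α2 chain, and the Col1a1 to Col1a2 ratio was 1.09 ± 0.167 over the 18 libraries (range 0.834 to 1.39). That ratio depends on the length used: with the longest annotated transcript in place of the union of exons it was 0.519 ± 0.0797. Col4a1 stood above its partner Col4a2 in every library, at a ratio of 1.54 ± 0.0854 (range 1.43 to 1.73), and Col6a1 above Col6a2 at 2.65 ± 0.159 (1.67 with the longest transcript). Col6a3, the long chain of type VI, was at 0.12 ± 0.0184 of Col6a1. The lines overlapped in each of these 4 ratios.

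Col4a1 and Col4a2 are neighbours in divergent orientation on chromosome 8 whose annotated 5′ ends overlap by 22 bases, and Col4a5 and Col4a6 are likewise head to head on chromosome X, 1308 bases apart (GRCm38). Col3a1 and Col5a2 lie tail to tail on chromosome 1, 24614 bases apart. Col6a1 and Col6a2 share a strand of chromosome 10 with 85161 bases between them.

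The share of all gene-assigned reads taken by the 44 collagens overlapped between the lines. In WT libraries it was 1.89% at the lowest, 2.30% at the median and 3.04% at the highest, and in TRIM21 libraries 1.00%, 2.06% and 2.56% (exact 95% intervals span at most 0.014 percentage points and cover counting error only). After PBS the WT libraries numbered 10, 11 and 14 held 2.25%, 2.39% and 2.38% and the TRIM21 libraries 1.61%, 1.00% and 2.32%. The TRIM21 PBS group spread widest in collagen share, and its highest library lay within the WT range. After IgG the TRIM21 libraries held 2.13%, 2.06% and 2.27% against 2.18%, 2.11% and 2.85% in WT. After BSA they held 1.79%, 1.72% and 2.56% against 2.30%, 1.89% and 3.04%. The libraries numbered 14 had the highest share in 5 of the 6 groups and those numbered 11 the lowest in 5 of 6; the labels do not say what the numbers stand for.

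**Figure D2:**
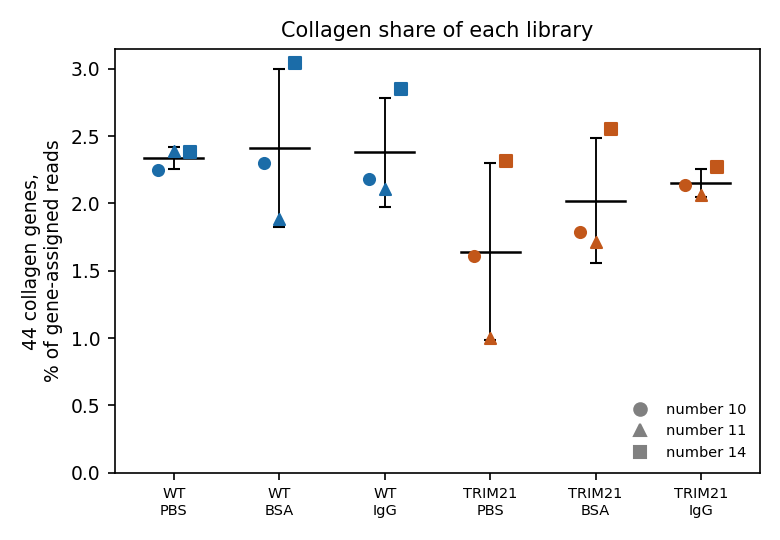
Share of gene-assigned reads in the 44 collagen genes, in percent, for each of 18 libraries by group; marker shapes give the title number, and bars give the group mean ± SD of 3 libraries. TRIM21 PBS number 11 is lowest at 1.00%, and number 14 is highest in 5 of the 6 groups.

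Types I and III together made up most collagen reads, 57.5% to 61.7% in WT and 53.6% to 58.9% in TRIM21 libraries, not corrected for length. Type VI made up 25.2% to 27.6% in WT and 27.1% to 28.8% in TRIM21. Summed fibrillar collagens, as the mean ± SD of 3 libraries, were at 15140 ± 485 CPM in WT after PBS, 15860 ± 4191 after BSA and 15530 ± 2827 after IgG, and at 10410 ± 4354, 12680 ± 2908 and 13700 ± 588 CPM in TRIM21 cells. For the network class the same sums were 1307 ± 60.1, 1310 ± 218 and 1319 ± 146 CPM in WT and 1038 ± 228, 1169 ± 184 and 1249 ± 29 CPM in TRIM21. Beaded filament sums ran from 5966 ± 200 to 6500 ± 1051 CPM over the WT groups and from 4648 ± 1812 to 5982 ± 162 CPM over the TRIM21 groups. In each of these 3 classes the lowest mean was that of TRIM21 cells given PBS, which was also the most scattered group.

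Between the lines, averaged over the 3 treatments, 4 of the 26 tested collagens fell in TRIM21 cells and 0 rose: the fibrillar genes Col11a1 and Col5a2 and the FACIT genes Col12a1 and Col22a1. Tests were edgeR quasi-likelihood tests with Benjamini-Hochberg adjustment over all 12140 genes and a threshold of 0.05. They held no term for the title number. With that number fitted as a replicate block more collagens were called, as given at the end. Over all tested genes 6.18% were called, 4.79% lower and 1.39% higher. A lower level in bulk RNA can reflect fewer cells of a type or less RNA per cell, and these cannot be told apart here. Of the 10 fibroblast markers, whose summed range was lower in TRIM21 cells, Thy1 and Fbn1 also fell, and the part of this in the collagen values was not tested.

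Col11a1 encodes the α1 chain of type XI collagen, a minor fibrillar collagen that initiates thin fibrils and is best known from cartilage (ENSMUSG00000027966.20, chr3:114030540-114220718, plus strand, GRCm38). In WT libraries numbered 10, 11 and 14 it was at 4.36, 3.89 and 5.32 CPM after PBS, 3.40, 3.73 and 4.67 after BSA and 4.55, 5.43 and 5.57 after IgG. In TRIM21 libraries it was at 2.14, 1.6 and 1.79 CPM after PBS, 1.55, 1.66 and 1.504 after BSA and 2.26, 2.77 and 1.39 after IgG. All 9 TRIM21 libraries lay below all 9 WT libraries, which held in that direction for 1.67% of tested genes (0.239% in the other direction) and for no other collagen. The log2 fold change was −1.30 (SE 0.125, edgeR adjusted p = 1.44e-06), or 0.406 of the WT level, on 31 to 124 reads per library. Leaving out any of the 18 libraries in turn kept this call.

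Its partner chain Col11a2 went the other way in value, at 2.79 ± 0.656 CPM in WT and 3.49 ± 1.15 in TRIM21 (SD, n = 9 each; log2 fold change 0.31, SE 0.179, edgeR adjusted p = 0.326), and did not pass the test. The Col11a1 to Col11a2 ratio of CPM per kb was 0.933 ± 0.325 in WT and 0.310 ± 0.105 in TRIM21 libraries. Its lowest WT value was 0.582 and its highest TRIM21 value 0.476, so the lines did not overlap in this ratio.

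The promoter windows of 3 fibrillar genes are printed because their test outcomes were unlike. Col11a1 was called lower, while Col3a1 and Col5a1 were lower in value and did not pass the test. Each is the 250 bases upstream of the RefSeq start (GRCm38, plus strand), 5′ to 3′, with capitals marking matches on either strand to the CCAAT box (CCAAT), the GC box (GGGCGG) or the TATA box (TATAAA). None of the 3 windows holds annotated exon sequence.
Col11a1, chr3:114030290-114030539: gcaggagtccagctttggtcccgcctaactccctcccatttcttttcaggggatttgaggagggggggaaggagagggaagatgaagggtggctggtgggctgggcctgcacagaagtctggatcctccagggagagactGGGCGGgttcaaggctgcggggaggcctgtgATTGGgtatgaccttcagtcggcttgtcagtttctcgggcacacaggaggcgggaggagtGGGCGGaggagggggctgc
Col5a1, chr2:27886175-27886424: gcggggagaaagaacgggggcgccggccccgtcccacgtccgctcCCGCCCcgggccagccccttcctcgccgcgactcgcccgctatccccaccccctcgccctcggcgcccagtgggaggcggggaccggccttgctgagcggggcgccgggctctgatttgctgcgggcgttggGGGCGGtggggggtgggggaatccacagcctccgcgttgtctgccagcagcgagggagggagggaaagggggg
Col3a1, chr1:45311288-45311537: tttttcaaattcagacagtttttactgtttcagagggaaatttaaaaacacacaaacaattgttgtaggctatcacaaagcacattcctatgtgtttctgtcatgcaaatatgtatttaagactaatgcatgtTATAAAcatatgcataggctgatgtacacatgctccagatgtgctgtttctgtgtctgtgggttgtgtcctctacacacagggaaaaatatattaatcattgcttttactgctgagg
The Col11a1 window is 62.4% G and C with 2 GC box matches and 1 CCAAT match, the Col5a1 window is 76.4% G and C with 2 GC box matches, and the Col3a1 window is 35.2% G and C with 1 TATA match. Across 38 windows of the 35 collagen genes matched by symbol, 22 held a GC box, 13 a CCAAT box and 5 a TATA box. Among all 32851 windows the shares were 32.7%, 33.8% and 12.4%. A match is a description of the letters and not evidence of a bound factor.

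Col5a2 encodes the α2 chain of type V collagen, which sits inside type I fibrils and limits their diameter (ENSMUSG00000026042.16, chr1:45374321-45503282, minus strand). Its WT levels for numbers 10, 11 and 14 were 785, 698 and 799 CPM after PBS, 737, 617 and 821 after BSA and 767, 726 and 789 after IgG. The TRIM21 levels were 586, 393 and 641 CPM after PBS, 601, 562 and 655 after BSA and 629, 585 and 653 after IgG. Apart from the WT BSA library numbered 11 at 617 CPM, all WT libraries lay above all TRIM21 libraries. The log2 fold change was −0.35 (SE 0.0836, edgeR adjusted p = 0.0169), or 0.786 of the WT level.

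The partner chain Col5a1 was at 592 ± 71.1 CPM in WT and 553 ± 117 in TRIM21 libraries (log2 fold change −0.11, SE 0.112, edgeR adjusted p = 0.613) and did not pass. Accordingly the Col5a1 to Col5a2 ratio of CPM per kb was 0.894 ± 0.0802 in WT and 1.05 ± 0.132 in TRIM21, with overlapping ranges of 0.744 to 0.990 and 0.901 to 1.24. Col5a3, the remaining chain gene of type V, had a log2 fold change of −0.09 (SE 0.165).

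Col12a1 encodes type XII collagen, a FACIT collagen that decorates type I fibrils in tendon and other dense tissue (ENSMUSG00000032332.17, chr9:79598991-79718831, minus strand). In WT libraries numbered 10, 11 and 14 it was at 54.7, 34.9 and 51.2 CPM after PBS, 41.1, 30.8 and 39.7 after BSA and 58.2, 46.3 and 45.4 after IgG. In TRIM21 libraries it was at 29.1, 6.80 and 27.5 CPM after PBS, 30.8, 25.9 and 29.7 after BSA and 34.3, 28.3 and 20.4 after IgG. The TRIM21 PBS library numbered 11 was far below every other library, and 2 TRIM21 libraries reached above the lowest WT library. The log2 fold change was −0.79 (SE 0.192, edgeR adjusted p = 0.0187), and without that library it was −0.66 (SE 0.111, edgeR adjusted p = 0.00116).

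Col22a1 encodes type XXII collagen, a FACIT collagen of tissue junctions such as that of muscle and tendon (ENSMUSG00000079022.10, chr15:71795795-72034227, minus strand). The lowest, median and highest of the 9 WT libraries were 1.65, 1.77 and 2.71 CPM, and of the 9 TRIM21 libraries 0.700, 1.18 and 2.00 CPM, on 14 to 64 reads per library. The ranges overlapped. The log2 fold change was −0.67 (SE 0.180, edgeR adjusted p = 0.0320). This call is marginal: it was lost on leaving out any of 11 libraries, namely TRIM21 PBS 10 or 11, TRIM21 BSA 10 or 14, TRIM21 IgG 11 or 14, WT PBS 11, WT BSA 10 or 14 and WT IgG 11 or 14, with edgeR adjusted p-values from 0.0520 to 0.0691. A gene on the opposite strand, Gm16308, overlaps Col22a1, and whether counting used strand is not given in the sources used here, so reads of the pair may not be separated.

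**Figure D3:**
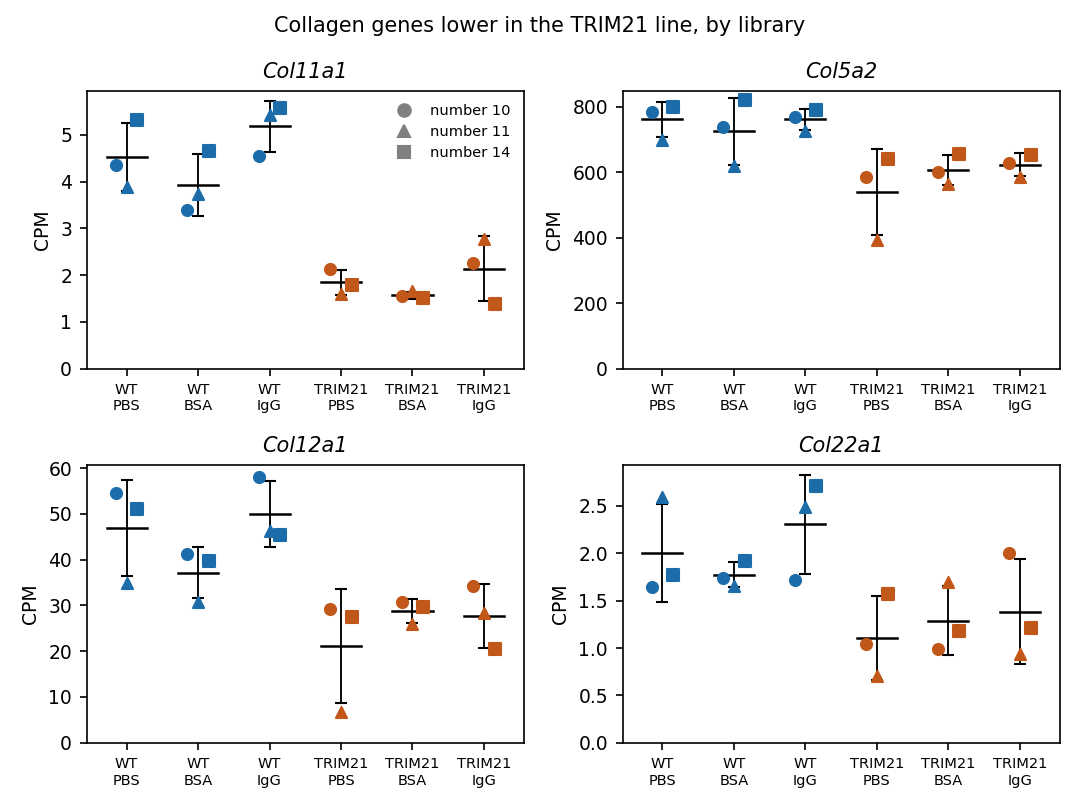
CPM of the 4 collagen genes called between the lines, in each of 18 libraries by group, with axes starting at 0; marker shapes give the title number and bars the group mean ± SD of 3 libraries. The lines are fully separated for Col11a1 and overlap for Col5a2, Col12a1 and Col22a1.

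Most of the other collagens were lower in value in TRIM21 cells without passing the test. Of the 26, 20 had a negative log2 fold change and the median was −0.23, beside a median of 0.01 over all tested genes, of which 54% were positive. By class, 8 of 9 fibrillar genes were lower (median −0.29), as were 4 of 5 network genes (median −0.17), 3 of 3 beaded filament genes (median −0.23) and 3 of 5 FACIT genes (median −0.13). Unadjusted p-values were under 0.05 for 14 of the 26 collagens and for 2600 of 12140 genes. Without the TRIM21 PBS library numbered 11 the collagen median was −0.17, with 19 of 26 lower and 3 called (Col11a1, Col12a1 and Col5a2). Without the TRIM21 PBS library numbered 14, the highest of its group, it was −0.31 and 10 were called, so the count of called collagens turned on which library of that group was kept. The shares of all genes called in these refits are not given here. Whether calls rose more among collagens than among other genes was not tested.

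The abundant fibrillar genes were lower in value and did not pass the test with all 18 libraries and no term for the title number. With that number as a replicate block, Col1a1 and Col3a1 passed and Col1a2 did not. Col1a1 was at 2462, 3295 and 5019 CPM (lowest, median and highest of 9) in WT and at 1342, 2671 and 3215 CPM in TRIM21, with a log2 fold change of −0.43 (SE 0.166, edgeR adjusted p = 0.145). Col3a1, which forms mixed fibrils with type I, was at 3662, 4948 and 6879 CPM in WT and 1332, 3709 and 5466 CPM in TRIM21 (−0.44, SE 0.191, edgeR adjusted p = 0.195). Col1a2 had −0.25 (SE 0.119, edgeR adjusted p = 0.231). The ranges of the lines overlapped for all 3 genes, and each had its lowest library in TRIM21 PBS number 11. Without that library the log2 fold changes were −0.35 for Col1a1, −0.32 for Col3a1 and −0.19 for Col1a2.

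Among network and beaded filament genes the log2 fold changes ran from −0.27 to 0.14. Col4a1 was at 642 ± 77.1 CPM in WT and 542 ± 91 in TRIM21 (SD, n = 9 each; log2 fold change −0.25, edgeR adjusted p = 0.138), and Col4a2 had −0.23 (edgeR adjusted p = 0.195). Col8a1, a short-chain network collagen of vessel walls and basement membranes, was higher in value, at 97.7 ± 7.09 and 108 ± 7.92 CPM (0.14, SE 0.056, edgeR adjusted p = 0.161). Col6a1 had −0.27 and Col6a2 −0.23, with edgeR adjusted p-values of 0.257 and 0.358, while Col6a3 had −0.07 (edgeR adjusted p = 0.624). None of these passed the threshold.

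In the remaining classes Col7a1, which anchors epithelial basement membranes, came nearest to the threshold at −0.62 (SE 0.188, edgeR adjusted p = 0.0585). Col18a1, the multiplexin that holds the endostatin fragment, had −0.44 (edgeR adjusted p = 0.102), and the transmembrane collagen Col17a1 had 0.26 (SE 0.0854, edgeR adjusted p = 0.0809). The abundant FACIT gene Col16a1 had 0.05 (SE 0.165), and Col9a3 had 0.20 (SE 0.160). FACIT genes thus ranged from −0.79 for Col12a1 to 0.20 for Col9a3.

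**Figure D4:**
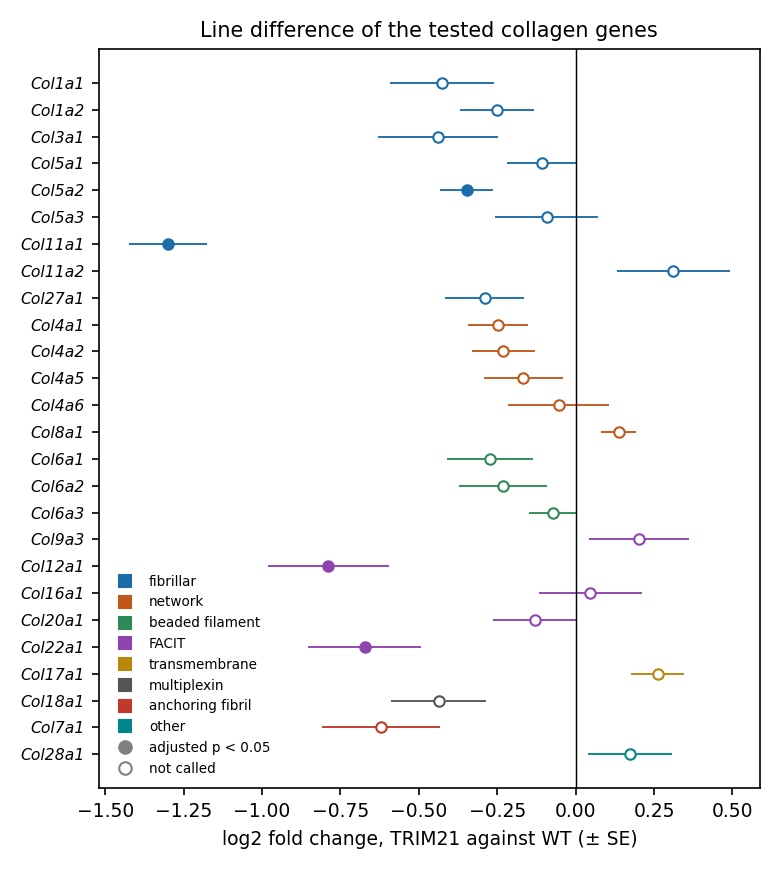
Log2 fold change of each tested collagen between the lines (TRIM21 against WT, averaged over treatments) with its SE, grouped and coloured by class; filled points have an adjusted p under 0.05. Of 26 genes 20 lie left of 0, and the filled points are Col5a2, Col11a1, Col12a1 and Col22a1.

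Within single treatments only Col11a1 fell among the collagens. Its log2 fold change was −1.29 after PBS (SE 0.216, edgeR adjusted p = 0.00297), −1.33 after BSA (SE 0.218, edgeR adjusted p = 0.00265) and −1.28 after IgG (SE 0.213, edgeR adjusted p = 0.00271). The background share of called genes was 1.71% after PBS (1.51% lower and 0.206% higher), 0.848% after BSA (0.766% and 0.0824%) and 0.774% after IgG (0.717% and 0.0577%). A fit restricted to the 6 libraries compared called 0 collagens after PBS (44 genes in all) and 2 after IgG, Col11a1 and Col12a1. Leaving out TRIM21 PBS number 14 raised the count after PBS to 12, and leaving out TRIM21 PBS number 11 raised that after IgG to 2. Shares over all genes for these leave-outs and for the restricted IgG fit are not given here, so their counts have no background beside them.

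With all libraries Col12a1 and Col5a2 gave uneven values across treatments. Col12a1 had −1.14 after PBS (SE 0.336), −0.37 after BSA (SE 0.331) and −0.85 after IgG (SE 0.333), and Col5a2 had −0.50 (SE 0.145), −0.26 (SE 0.145) and −0.29 (SE 0.145). Without TRIM21 PBS number 11 the Col5a2 values were nearly even, at −0.325, −0.266 and −0.290. Col12a1 after PBS was then at −0.744 (SE 0.208). Over the 26 collagens the median was −0.41 after PBS, −0.21 after BSA and −0.09 after IgG, beside 0.0054, −0.0044 and 0.0059 over all genes. Each of these medians moved with single libraries. The PBS median was −0.21 without TRIM21 PBS number 11 and −0.66 without TRIM21 PBS number 14, and the BSA median was −0.04 without WT BSA number 14 and −0.37 without TRIM21 BSA number 14. The sign of the IgG median turned on 1 library: it was 0.04, with 17 of 26 collagens higher, without WT IgG number 14 and −0.16 without WT IgG number 11.

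The treatments set the antibody against BSA and PBS, and BSA against PBS, within each line. No collagen passed the test in any of the 6 treatment comparisons within a line, and the background was the same: 0 of 12140 genes, or 0%, were called in each by edgeR, and also by the DESeq2 Wald test and limma-voom. At an unadjusted edgeR p under 0.05, genes numbered 681 for IgG against PBS, 45 for IgG against BSA and 447 for BSA against PBS in TRIM21 cells, and 325, 713 and 302 in WT cells. Of these, collagens accounted for 2, 0 and 0 in TRIM21 cells and for 0 in each WT comparison.

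The 2 were Col9a3 and Col18a1 for IgG against PBS in TRIM21 cells. Col9a3, a chain of the cartilage FACIT type IX, was at 1.47, 1.05 and 1.65 CPM after PBS, 1.99, 1.07 and 1.86 after BSA and 2.74, 1.93 and 2.11 after IgG in TRIM21 libraries numbered 10, 11 and 14. Its 3 IgG libraries lay above its 3 PBS libraries (log2 fold change 0.69, SE 0.273, edgeR adjusted p = 0.724). In WT libraries Col9a3 was at 1.65, 1.82 and 1.44 CPM after PBS and 1.53, 1.015 and 1.23 after IgG (−0.37, SE 0.289, edgeR adjusted p = 1). Partner chains Col9a1 and Col9a2 had 0 and 1 reads in all. Col9a3 overlaps Tcfl5 on the opposite strand, with the same limit on separating reads. Col18a1 had a log2 fold change of 0.59 (SE 0.270, edgeR adjusted p = 0.724). Without TRIM21 PBS number 11 the values were 0.55 for Col9a3 and 0.45 for Col18a1.

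In TRIM21 cells the smallest unadjusted p among collagens was that of Col17a1 for IgG against BSA (0.29, SE 0.146, edgeR adjusted p = 0.9999) and of Col6a3 for BSA against PBS (0.26, SE 0.135, edgeR adjusted p = 0.841). In WT cells it was that of Col11a1 for IgG against BSA (0.39, SE 0.200, edgeR adjusted p = 0.741) and of Col17a1 for BSA against PBS (0.28, SE 0.149, edgeR adjusted p = 0.982). None of these 4 passed.

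In TRIM21 cells the collagens were nonetheless mostly higher in value after either protein than after PBS. For IgG against PBS 25 of 26 were higher with a median of 0.34, and for BSA against PBS 23 of 26 with a median of 0.24, beside medians of 0.008 and 0.00038 over all genes. Both comparisons share the 3 PBS libraries. Without the library numbered 11 the counts were 22 of 26 and 17 of 26 and the medians 0.15 and 0.04. IgG against BSA, which does not use the PBS libraries, had 20 of 26 higher with a median of 0.11, but 14 of 26 with a median of 0.03 without TRIM21 BSA number 11 and 24 of 26 with a median of 0.31 without TRIM21 BSA number 14. In WT cells each of the 3 comparisons had 15 of 26 higher, with medians of 0.02, 0.02 and 0.01, and the direction of each turned on 1 library. IgG against PBS ran from 6 of 26 higher (median −0.11, without WT IgG number 14) to 19 of 26 (0.12, without WT IgG number 11). IgG against BSA ran from 7 of 26 (−0.13, without WT BSA number 11) to 22 of 26 (0.17, without WT BSA number 14). BSA against PBS ran from 3 of 26 (−0.15, without WT BSA number 14) to 17 of 26 (0.14, without WT BSA number 11).

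**Figure D5:**
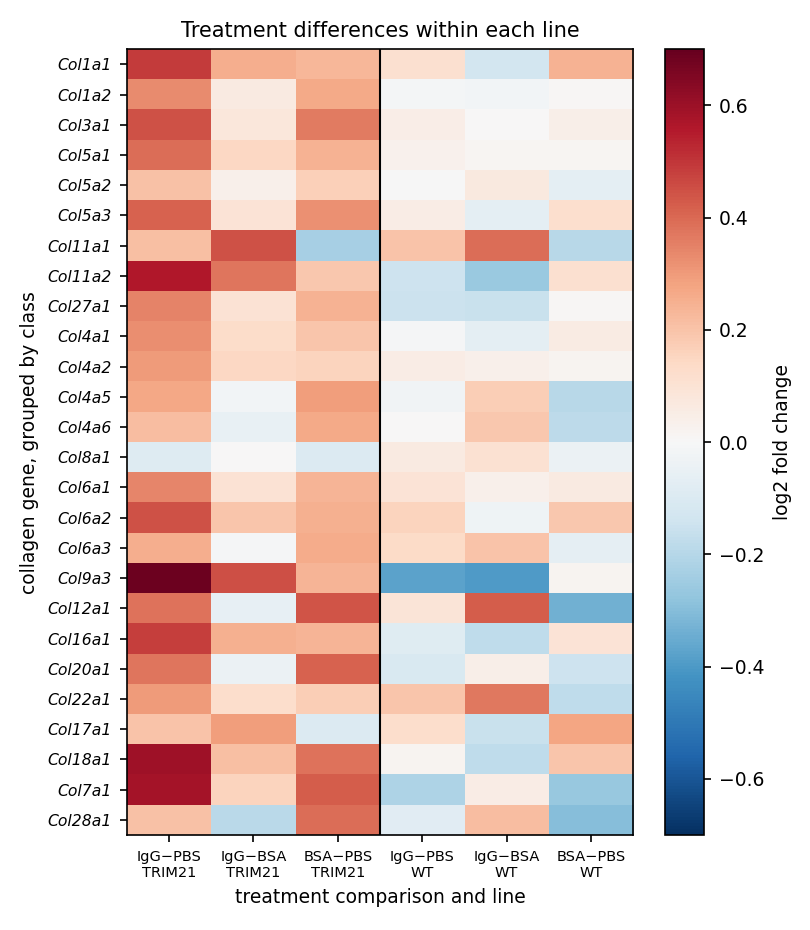
Log2 fold change of the 26 tested collagens (rows, by class) in the 6 treatment comparisons (columns, 3 in TRIM21 cells and 3 in WT cells), on a colour scale from blue for lower to red for higher. The TRIM21 columns for IgG against PBS and BSA against PBS share the TRIM21 PBS libraries and are mostly red, and no square has an adjusted p under 0.05.

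Tests of whether a treatment difference itself differed between the lines called 0 of 26 collagens and 0% of all genes in each of 3 interactions by edgeR, and 0 genes by DESeq2 and limma-voom. Col9a3 had an interaction of 1.06 (log2, SE 0.397) with IgG against PBS and of 0.85 (SE 0.390) with IgG against BSA, both at an unadjusted p under 0.05. The same held for Col17a1 with IgG against BSA (0.45, SE 0.209) and for Col28a1 with BSA against PBS (0.69, SE 0.325). The numbers of all genes under that level were 221 for IgG against PBS, 482 for IgG against BSA and 790 for BSA against PBS, and the edgeR adjusted p-values of these collagens were 0.972, 0.844, 0.844 and 0.651 in that order.

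Genes whose products fold, trim or bind collagen were compared between the lines in the same fit. Among 28 genes for folding and secretion there were 26 tested: 4 fell and 0 rose, with 20 of 26 negative and a median of −0.14. Over all tested genes 4.79% were called lower and 1.39% higher, and the median was 0.01. Crtap, part of the prolyl 3-hydroxylase complex, went from 107 ± 7.18 CPM in WT to 74 ± 6.11 in TRIM21 (−0.54, edgeR adjusted p = 4.30e-06). Fkbp14, a collagen chaperone, had −0.55 (edgeR adjusted p = 0.00842), Sparc, a collagen-binding secreted protein, −0.30 (edgeR adjusted p = 0.0207), and P4ha1, a prolyl 4-hydroxylase subunit, −0.31 (edgeR adjusted p = 0.0379). The collagen chaperone gene Serpinh1 did not pass (−0.14, edgeR adjusted p = 0.316).

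Outside the cell, 15 of 17 fibril-associated matrix genes were tested and 6 fell, with a median of −0.18, beside 4.79% called lower over all tested genes. The small proteoglycan genes Lum and Aspn had log2 fold changes of −2.54 (edgeR adjusted p = 5.26e-05) and −1.77 (edgeR adjusted p = 9.89e-05); Lum was already low in WT, at 2.07 ± 0.808 CPM. Nid2, which links basement membrane networks, had −0.78 (edgeR adjusted p = 0.00193) and the microfibril gene Fbn1 −0.30 (edgeR adjusted p = 0.00371). Of 9 tested genes for propeptide removal and cross-linking, the protease gene Tll1 fell (−0.89, edgeR adjusted p = 0.0154) and the lysyl oxidase gene Loxl4 rose (0.30, edgeR adjusted p = 0.0185). Tll1 was low in both lines, at 1.21 ± 0.204 CPM in WT and 0.681 ± 0.376 CPM in TRIM21. Among 8 tested collagen receptors and uptake genes Itga1, a collagen-binding integrin chain, rose from 0.397 ± 0.17 to 0.962 ± 0.33 CPM (1.27, edgeR adjusted p = 0.00649). Of the tested regulators the growth factor gene Tgfb3 fell (−0.32, edgeR adjusted p = 0.00647), as did the receptor gene Tgfbr1 (−0.23, edgeR adjusted p = 0.0482). Medians of the propeptide and receptor lists were −0.05 and 0.03. Single calls in these short lists describe the genes and not the lists, beside 4.79% lower and 1.39% higher over all tested genes.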

How the data were processed

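RNA-seq libraries from 18 samples (6 groups of 3) were used. The values deposited by the authors are raw counts of reads per gene symbol, 1 table per library, without normalization. The submitters' processing notes name STAR 2.5.1b, HTSeq 0.6.0, DESeq2 1.6.3 and the build mm10, with no role or settings, and the strand setting of counting is not given in the sources used here; the kit was strand-specific per the labels' protocols. Lines that name no gene held 46.5% to 50.5% of each table and were left out. Symbols were tested with edgeR 4.0.16 in R 4.3.3: filterByExpr (minimum count 10, minimum total 15), TMM factors, 1 mean per group over all 18 samples, quasi-likelihood tests, and Benjamini-Hochberg adjustment within each of 13 comparisons at 0.05. CPM uses TMM factors; 3 reads correspond to 0.0981 to 0.152 CPM per library. Lengths and positions are those of GENCODE for GRCm38; promoters are RefSeq's for GRCm38. The alternatives were DESeq2 1.42.0, limma 3.58.1 (voom), other filters and size factors, a replicate block, fewer samples, and other lengths. The text names Trim21, each called collagen, the 8 highest per kilobase, partner chains, the smallest p per treatment comparison, and up to 4 called genes per list; Serpinh1, Col7a1, Col8a1 and the other uncalled collagens given with values were chosen after their values were seen. The members and lists were chosen with earlier results of these data known. The procedure was tested on simulated data. Of the regulator list, 1 result is not reported here.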

Additional observations from a re-analysis of the deposited data

How the results depend on the processing

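Of 364 alternative values for counts of called genes and for chain ratios, 344 stayed the same and 20 moved. A count was the same if within 1.5 times the reported count, and a ratio if within 1 SD. The ratios without TMM factors could not move, since the scaling of a library cancels in a ratio within it. Direction was not part of this tally. Treatment and interaction comparisons, where 0 collagens were called, were the same whenever the alternative also called 0. The cause was not tested for those that moved. List medians and single genes are outside that tally: leaving out 1 library turned the sign of the collagen median between the lines after IgG, of all 3 WT treatment comparisons and of the interaction for IgG against BSA (−0.08 to 0.28), and Col16a1 kept its sign in 21 of 27 settings, Col4a6 in 25, and Col5a3 and Col20a1 in 26 each. The line comparison averaged over treatments (4 collagens called) gave 0 with only the samples numbered 11 and 2 with only those numbered 14, where fewer samples were fitted, and 3 to 10 on leaving out 1 library. After PBS (1 called) the count was 2 with no filter, 3 by the DESeq2 Wald test, 0 with only the groups compared and 1 to 12 on leaving out 1 library. After IgG (1 called) it was 2 with only the groups compared and 1 to 2 on leaving out 1 library. The folding and secretion list (4 called) gave 10 by the DESeq2 Wald test, the propeptide list (2 called) gave 1 and the receptor list (1 called) gave 0 when every library had to hold 10 counts or more of a gene, which tests fewer genes. With the longest transcript as length the chain ratios were 0.519 for Col1a1 to Col1a2, 1.69 for Col4a1 to Col4a2, 0.680 for Col5a1 to Col5a2 and 1.67 for Col6a1 to Col6a2.

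The title number as a replicate block called 9 collagens between the lines, 7 after PBS, 11 folding and secretion genes and 3 receptor genes. The 9 were Col11a1, Col12a1, Col18a1, Col1a1, Col22a1, Col27a1, Col3a1, Col5a2 and Col7a1. Over all tested genes 1462 were called between the lines with the block and 750 without it, so calls rose beyond the collagens. Counts over all genes for the other alternatives are not given in this section. Same-numbered samples correlated in their deviations from the group means with a mean r of 0.218 (from −0.323 to 0.579, with 32 of 45 pairs above 0.1). Deviations from a group mean cancel within the group. The mean r of different-numbered samples, −0.109, was therefore largely fixed by that of same-numbered samples and is not separate evidence. Of 18 samples, 16 correlated best with their own number, and no chance level was computed for this count. By the mean r of same-numbered samples, libraries of the same number shared part of their spread, though not in every pair. The tests in the Results left the number out, since the labels do not say what it marks. They therefore do not account for that shared spread. Col7a1 passed in 7 of 27 settings: with no filter, by the DESeq2 Wald test, with the replicate block and in 4 of 18 leave-outs. The 18 untested collagens, with at most 15 reads in any library, were too low to be tested between groups. Among them Col6a5 had 26 reads in the WT libraries together and 70 in the TRIM21 libraries, and Col15a1 had 26 and 9. These genes were picked after their values were seen, and the differences were not tested.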
